A study of Danio rerio with 8 samples.

Results

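The genes described here encode fatty acid elongases and desaturases of the zebrafish, the enzymes that lengthen fatty acids and put double bonds into them. They were taken from a list of 10 gene symbols, and a probe belonged to a gene when its RefSeq accession was that gene's. Of the 10 listed genes 9 had a probe, namely scd, scdb, fads2, elovl1a, elovl1b, elovl2, elovl5, elovl6 and elovl7a. They were measured by 11 probes, and they were 9 of 17264 named genes tested. No probe could be matched to elovl7b, which was not analysed here.

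Gene expression was compared between pex2 mutants (pex2-/-), carrying the typeC allele, and their wild-type siblings (pex2+/+), a zebrafish model of Zellweger syndrome, at 5 weeks post fertilization. No other allele or treatment is named for either genotype. Each sample was a pool of equal amounts of total RNA from the whole bodies of 3 larvae, hybridised to its own one-colour Agilent array, with 4 pools per genotype. The labels do not say whether pools came from separate clutches, so the p-values measure only the spread between pools, which may be partly technical. Values are log2 intensities relative to the 75th percentile of the same array, and a difference is the mutant mean minus the sibling mean on that scale, with its moderated standard error and a limma p-value adjusted over all probes kept. The threshold was an adjusted p of 0.05. In whole bodies, fewer cells of a type and less RNA per cell cannot be told apart.

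An elongase in the endoplasmic reticulum starts each round of lengthening by adding a carbon unit to a fatty acyl-CoA, and a reductase, a dehydratase and a second reductase complete the round. Desaturases of the same membrane draw electrons from cytochrome b5. Peroxisomes work in the opposite direction and shorten very long chains, and the last step of docosahexaenoic acid synthesis in vertebrates also takes place there. Import of peroxisomal enzymes requires the membrane protein Pex2.

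All 11 probes were well above background on all 8 arrays. Mutant arrays were dimmer, with a 75th percentile of 454 to 499 intensity units against 611 to 839 on the sibling arrays. The exact two-sided permutation p was 0.0286, the lowest value possible with 4 arrays against 4. Without scaling, the median difference of all named genes was -0.53, and with it 0.01. A change on the scaled scale is therefore a change relative to the other transcripts of the same pool. Defining markers of liver, intestine, epidermis, neurons and muscle were above background on every array. Precision is limited by having 4 arrays per genotype.

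Across the family, the enzymes of polyunsaturated and of shorter saturated and monounsaturated fatty acids were mostly higher in the mutants. Of the 3 listed elongases of saturated very long chains, elovl1a, elovl1b and elovl7a, 2 were lower. Outside the list, the elongase elovl4a was higher (1.21) and elovl4b did not pass (0.11). The genes fads2, elovl2, elovl5, elovl6 and scdb rose by 1.49-fold to 2.54-fold. The genes elovl1a and elovl7a fell by 3.1-fold and 2.46-fold. The genes scd and elovl1b did not pass the test. Thus 5 of 9 rose, where 29.9% of all named genes did, and 2 of 9 fell, where 27.8% did. In either direction 7 of 9 (77.8%) passed, where 57.6% of named genes did. A change of at least 2-fold passed in 6 of 9, against 19.5% of named genes. The pools of the 2 genotypes did not overlap for 6 of 9, against 54.6% of named genes. The median difference was 0.57 over the 9 genes and 0.01 over all named genes. With a background this high, the counts are given as a description of the family.

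The gene fads2 encodes the front-end desaturase that begins the conversion of dietary polyunsaturated fatty acids into longer, more unsaturated ones. Its signal in sibling pools 1 to 4 was 5.42, 5.25, 5.34 and 5.85, and in mutant pools 1 to 4 it was 7.13, 6.08, 6.45 and 7.28. Every mutant pool lay above every sibling pool, and the nearest pools of the 2 genotypes were 0.23 apart. The difference was 1.27 ± 0.28, or 2.41-fold (adjusted p = 0.00489). Before scaling, its intensity ran from 23586 to 35836 in siblings and from 30681 to 77264 in mutants, so that the genotypes overlapped. On that unscaled measure the difference was 0.73 and did not pass (adjusted p = 0.0555).

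The gene elovl5 encodes the elongase that acts on the shorter polyunsaturated chains. Its signal was 1.29, 1.67, 1.65 and 1.65 in the sibling pools and 2.38, 1.93, 2.18 and 2.07 in the mutant pools. The genotypes did not overlap, and the gap between them was 0.26. This was the smallest of the 5 rises, 0.57 ± 0.13 or 1.49-fold (adjusted p = 0.00684), and 44.2% of all named genes differed by more in either direction. Its unscaled intensity ran from 1919 to 2279 in siblings and from 1729 to 2371 in mutants, a difference of 0.03 (adjusted p = 0.874). Its rise was therefore a rise relative to the rest of the array, not in brightness itself.

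The gene elovl2 encodes the elongase that acts on longer polyunsaturated chains, on the way to the precursor of docosahexaenoic acid. Its signal was 2.27, 2.30, 2.43 and 2.64 in the sibling pools and 4.41, 2.58, 3.26 and 3.77 in the mutant pools. Mutant replicate 2 lay within the sibling range, and the other 3 mutant pools lay above it. The mean difference was 1.09 ± 0.35, or 2.13-fold (adjusted p = 0.0259). Its size rested most on mutant replicate 1, without which the difference was 0.79 and still passed. The call was near the threshold. With little change in the difference (1.05, 1.05, 1.10 and 1.00), it was lost without 1 of 4 other pools. These were sibling replicate 1 (adjusted p = 0.0612), sibling replicate 2 (0.0600), sibling replicate 3 (0.0512) and mutant replicate 4 (0.0570). On unscaled intensity the difference was 0.55 (adjusted p = 0.198).

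**Figure D1:**
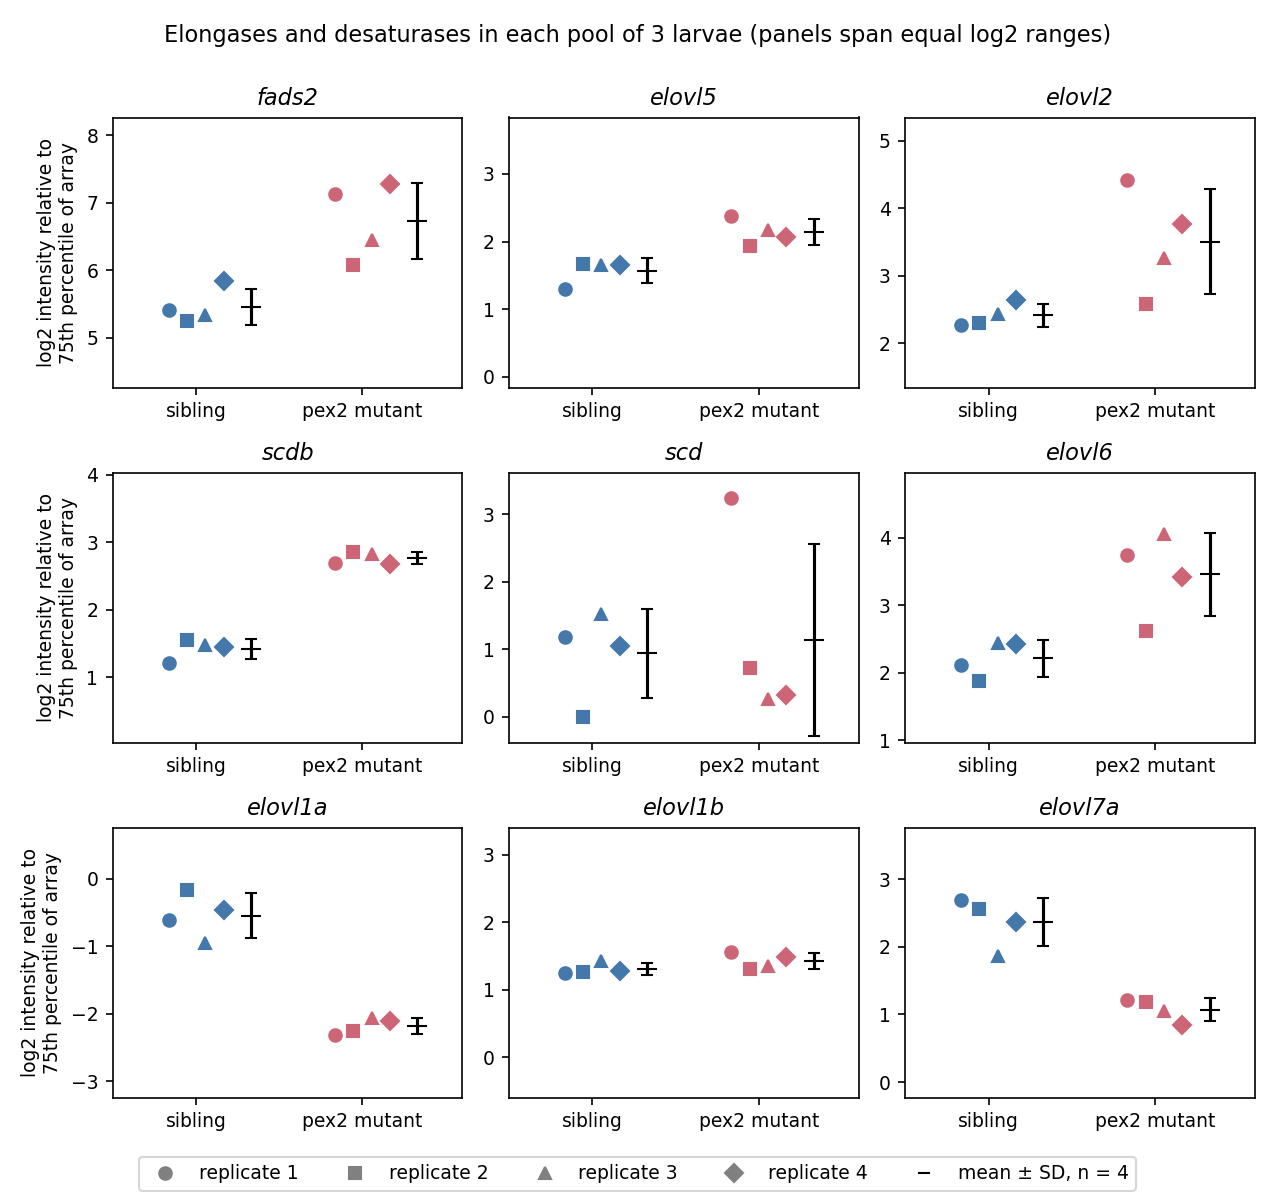
Each panel shows 1 gene in the 4 sibling pools (blue) and the 4 pex2 mutant pools (red), as log2 intensity relative to the 75th percentile of the array; marker shape gives the replicate number, and the black bar is the mean ± SD (n = 4). The genotypes are apart for fads2, elovl5, scdb, elovl6, elovl1a and elovl7a and overlap for elovl2, scd and elovl1b; levels of different genes come from different probes and are not comparable.

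Stearoyl-CoA desaturases make oleic and palmitoleic acid from saturated precursors, and the fish has copies named scd and scdb. For scdb the brighter probe read 1.21, 1.55, 1.48 and 1.45 in the sibling pools and 2.70, 2.85, 2.83 and 2.68 in the mutant pools. The genotypes were 1.13 apart at their nearest pools, the widest gap in the family. The difference was 1.34 ± 0.10, or 2.54-fold (adjusted p = 6.40e-05). The dimmer probe, which carries another accession of the same gene, gave 1.39 ± 0.10. The unscaled intensity of the brighter probe also parted the genotypes, at 1670 to 2016 in siblings and 2945 to 3512 in mutants. Of the 5 genes that rose, scdb was the only one that passed the test without any scaling (0.80, adjusted p = 0.00176).

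The scd signal was 1.19, -0.01, 1.53 and 1.05 in the sibling pools and 3.24, 0.73, 0.26 and 0.32 in the mutant pools. Mutant replicate 1 stood above every sibling pool, while the other 3 mutant pools lay inside the sibling range. The difference was 0.20 ± 0.67 (adjusted p = 0.814), with a 95% interval from -1.34 to 1.74, which holds changes as large as that of scdb. Its sign rested on single pools, since it was -0.50 without mutant replicate 1 and -0.12 without sibling replicate 2. The difference between the copies was tested as scdb minus scd within each array, centred on its mean over the 8 arrays. That quantity was -1.03, 0.50, -1.10 and -0.65 in the sibling pools and -1.60, 1.07, 1.51 and 1.31 in the mutant pools. Its genotype difference was 1.14 and was not shown to differ from 0 (exact two-sided permutation p = 0.200, adjusted over the 3 pairs tested 0.200). Without mutant replicate 1 it was 1.87 and did not pass (exact permutation p = 0.0571, adjusted 0.0857).

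The gene elovl6 encodes the elongase that turns palmitic into stearic acid. Its signal was 2.11, 1.87, 2.44 and 2.43 in the sibling pools and 3.74, 2.62, 4.06 and 3.41 in the mutant pools. The genotypes did not overlap, but mutant replicate 2 came within 0.18 of the highest sibling pools. The difference was 1.25 ± 0.30, or 2.37-fold (adjusted p = 0.00741). On unscaled intensity it was 0.70 (adjusted p = 0.0878).

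The fall was largest in elovl1a, whose mammalian counterpart ELOVL1 lengthens saturated very long chain acyl-CoAs used in sphingolipids. The brighter probe read -0.61, -0.17, -0.96 and -0.46 in the sibling pools and -2.32, -2.25, -2.06 and -2.10 in the mutant pools. The highest mutant pool lay 1.10 below the lowest sibling pool. The difference was -1.63 ± 0.17 (adjusted p = 0.000157), and only 6.93% of all named genes differed by more in either direction. The second probe gave -1.71 ± 0.16 (adjusted p = 0.000116). The unscaled intensity of the brighter probe ran from 372 to 552 in siblings and from 91.0 to 119 in mutants.

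Its copy elovl1b read 1.24, 1.26, 1.43 and 1.27 in the sibling pools and 1.56, 1.31, 1.35 and 1.48 in the mutant pools. The genotypes overlapped, and the spread within each was among the smallest in the family. The difference was 0.12 ± 0.09 (adjusted p = 0.290), with a 95% interval from -0.09 to 0.34. On unscaled intensity it turned to -0.42 (adjusted p = 0.0460), which was close to the median of all named genes on that measure. Taken as elovl1b minus elovl1a within each array, centred in the same way, the copies read -0.88, -1.30, -0.34 and -0.99 in the sibling pools and 1.15, 0.83, 0.67 and 0.85 in the mutant pools. Every mutant pool lay above every sibling pool. Its genotype difference was 1.76, or 3.38-fold, with an exact two-sided permutation p = 0.0286, the smallest possible for 4 against 4. After adjustment over the 3 pairs this p was 0.0857, above the threshold. A pair could not pass after adjustment, whatever its difference, unless another pair also reached the smallest p. The threshold therefore cannot decide on this pair.

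The gene elovl7a belongs to the same group by its mammalian counterpart ELOVL7, an elongase of long saturated acyl chains. Its signal was 2.69, 2.56, 1.87 and 2.37 in the sibling pools and 1.21, 1.18, 1.05 and 0.85 in the mutant pools. Every mutant pool lay below every sibling pool, with a gap of 0.66. The difference was -1.30 ± 0.18, or 2.46-fold lower (adjusted p = 0.000616). Its unscaled intensity ran from 2644 to 5418 in siblings and from 896 to 1051 in mutants.

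The remaining pair compared was elovl5 and elovl2, the elongases of polyunsaturated chains. As elovl5 minus elovl2, again centred, they read 0.12, 0.48, 0.33 and 0.11 in the sibling pools and -0.93, 0.46, 0.02 and -0.60 in the mutant pools. Mutant replicate 2 fell among the siblings and mutant replicates 1, 3 and 4 lay below them. The difference of -0.52 did not pass (exact two-sided permutation p = 0.200, adjusted 0.200). Without mutant replicate 2 it was -0.76 and passed (exact permutation p = 0.0286, adjusted 0.0429). That p is the lowest possible with 7 pools. The pair elovl1b minus elovl1a, at 1.77, had the same p-values there. Its unadjusted p was also 0.0286 with all 8 arrays. Its adjusted p fell only because elovl5 minus elovl2 reached the lowest value as well. Without mutant replicate 1, elovl5 minus elovl2 was -0.30 (exact permutation p = 0.400).

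**Figure D2:**
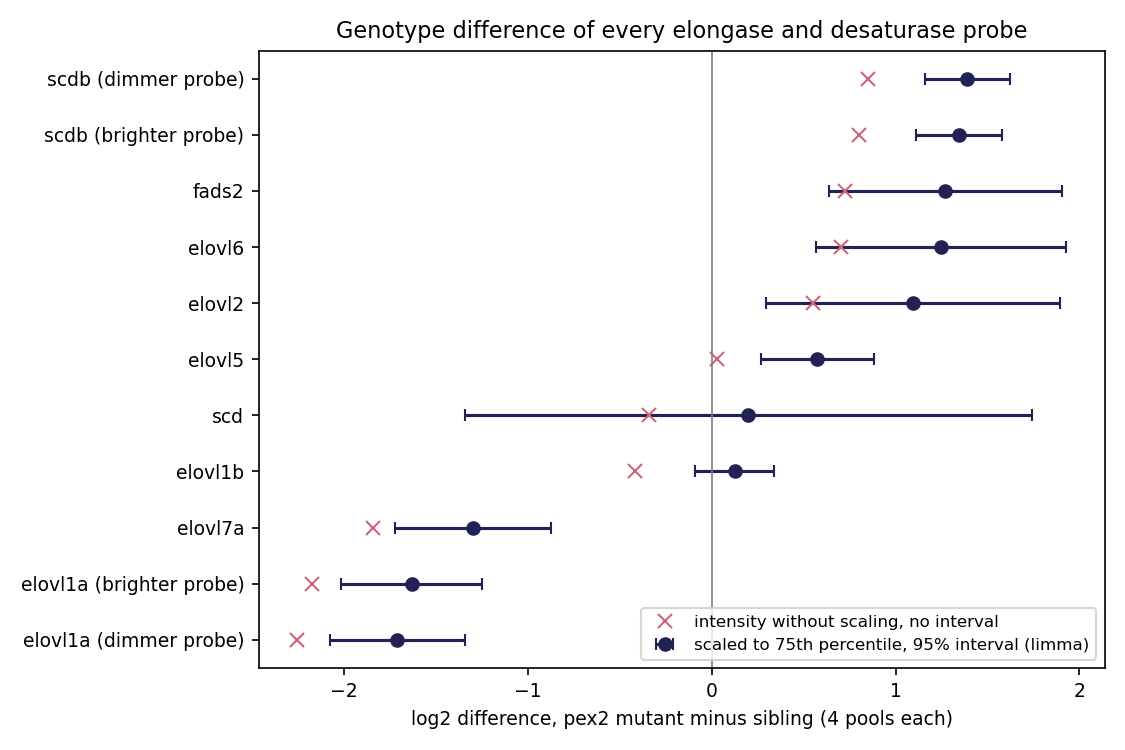
For each of the 11 probes, the dark point is the log2 difference (4 pex2 mutant pools minus 4 sibling pools) after scaling to the 75th percentile, with its 95% limma interval, and the cross is the difference of unscaled log2 intensity, without an interval. Scaling moves every probe by about the same amount. The scd and elovl1b probes change sign, and all other probes keep their side of 0 under both measures. Without scaling fads2 is at 0.73, elovl6 at 0.70 and elovl2 at 0.55, and elovl5 moves from 0.57 to 0.03.

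The mutant pools differed among themselves in most of the genes that rose. Mutant replicate 2 was the lowest of the 4 mutant pools for 4 of the 5, namely fads2, elovl2, elovl5 and elovl6. For scdb, in contrast, it was the highest, by 0.09 above the mutant mean. Mutant replicate 1 was the highest for elovl2 and elovl5, and for scd it lay 2.1 above the mutant mean. The SD over the mutant pools was 1.42 for scd, 0.78 for elovl2, 0.62 for elovl6 and 0.57 for fads2, against a median of 0.22 over all named genes. Only 1.58% of named genes had a larger SD among mutants than scd, and 6.63% a larger one than elovl2. By contrast scdb (0.09), elovl1b (0.12), elovl1a (0.12), elovl7a (0.17) and elovl5 (0.19) varied less among the mutant pools than the median gene. Among the sibling pools scd again had the largest SD of the family, 0.66, against a median of 0.15. Next there were elovl7a (0.36) and elovl1a (0.33), which varied more than the median gene among siblings. These spreads are descriptions, and no test of them was made.

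Averaged by the chains they act on, each gene centred on its mean over the 8 arrays, the polyunsaturated group of fads2, elovl2 and elovl5 differed by 0.98. It read -0.64, -0.56, -0.49 and -0.26 in the sibling pools and 1.00, -0.11, 0.32 and 0.74 in the mutant pools. The very long chain group of elovl1a, elovl1b and elovl7a differed by -0.94, with sibling pools at 0.54, 0.64, 0.21 and 0.49 and mutant pools between -0.50 and -0.42. The mutant pools were thus spread over more than 1 log2 unit in the first group and nearly level in the second. In the second group elovl1b differed by 0.12 and did not pass on its own. The elongases elovl4a (1.21) and elovl4b (0.11), outside the list, were not part of it. The group of scd, scdb and elovl6 differed by 0.93. It read -0.49, -0.85, -0.18 and -0.35 in the sibling pools and 1.24, 0.08, 0.39 and 0.15 in the mutant pools. Its scd member did not pass on its own and was far higher in mutant replicate 1 than in the other mutant pools.

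**Figure D3:**
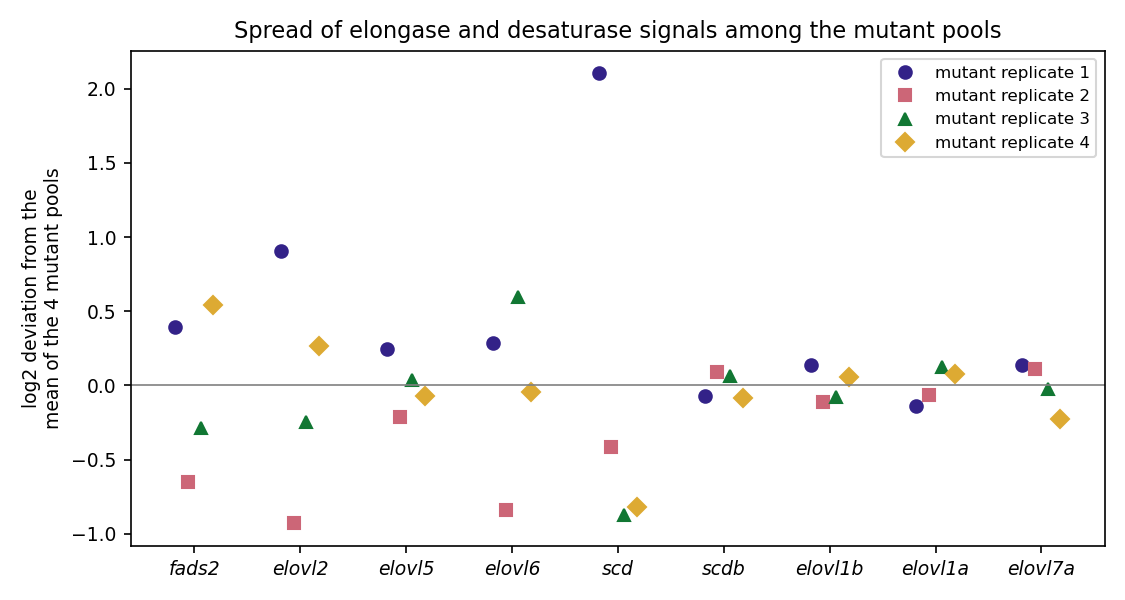
For each gene, the 4 points are the mutant pools as log2 deviation from the mean of the 4 mutant pools. Mutant replicate 2 (square) is lowest for fads2, elovl2, elovl5 and elovl6, mutant replicate 1 (circle) stands 2.1 above the mean for scd, and the pools lie close together for scdb, elovl1b, elovl1a and elovl7a.

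Cell type markers moved between the genotypes alongside these genes, and their counts stand against 29.9% of named genes higher and 27.8% lower. Epidermis markers were lower in 8 of 8 measured. Their mean centred level lay between 0.41 and 0.68 in sibling pools and between -0.82 and -0.33 in mutant pools. Of 8 enterocyte markers 6 were lower, with levels of 0.70 to 0.85 against -1.32 to -0.06. Neuron markers were higher in 5 of 6, with levels of -0.45 to -0.28 against 0.23 to 0.61. Of 10 hepatocyte markers 4 were higher and 1 was lower, with levels of -0.31 to 0.03 against 0.00 to 0.23. None of the markers tested in these 4 lists was below background on any array. In the other lists, 6 of 7 oocyte markers were lower (median -4.29), with levels of 1.30 to 2.34 against -5.72 to 0.67. The markers gdf9, buc, zp2.1 and zp2.2 were above background on only 3 of 4 mutant arrays, so the sizes of their falls are uncertain. Also lower were 6 of 7 markers of the lens, 3 of 4 of myelinating glia and 3 of 8 of exocrine pancreas. For skeletal muscle 1 of 7 was lower (14.3%), below the share of all named genes. Of 3 adipocyte markers 2 were lower and 1 higher. Of 7 photoreceptor markers 2 were higher (28.6%), near the share of all named genes. The part of these cell types in the differences of the elongases and desaturases was not tested.

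The profile most like each gene's was sought among 13251 named genes above background on all 8 arrays, leaving out the family itself and genes with clone or locus names or a missing value, as the smallest root mean square difference over the 8 arrays after centring. The closest match of elovl1a was the aquaporin aqp8a.1, at 0.15 log2 units, and that of elovl7a was the carbonic anhydrase ca7, at 0.09. For scdb it was the neural adhesion molecule l1cama (0.06), for fads2 nipal4 (0.23), for elovl2 mllt1b (0.21), for elovl5 the protocadherin pcdh2g16 (0.04) and for elovl6 the extra-ocular rhodopsin exorh (0.14). For elovl1b it was the mitochondrial import channel tomm40, at 0.04. The gene scd had no close match, since its nearest gene, dtwd2, was 0.59 away. The likeness is a description over 8 arrays, and all genes compared share those arrays.

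The partners that complete each elongation round or feed electrons to desaturases had 3 higher and 2 lower of 13 measured genes, or 38.5% called where 57.6% of named genes were, and a median difference of -0.17. The rises numbered 0 without sibling replicate 2 and 0 without scaling. Of the copies of the ketoacyl reductase, hsd17b12b rose by 0.63 ± 0.19 (adjusted p = 0.0185) and hsd17b12a fell by 0.63 (SE 0.15, adjusted p = 0.00732). The signal of hsd17b12b was 1.03, 0.72, 1.06 and 0.78 in the sibling pools and 1.84, 1.02, 1.57 and 1.70 in the mutant pools, so that mutant replicate 2 was again the lowest and overlapped the siblings. The enoyl reductase tecrb rose by 0.43 ± 0.14 (adjusted p = 0.0292) and the cytochrome b5 gene cyb5b by 0.65 ± 0.24 (adjusted p = 0.0427). The cytochrome b5 reductase cyb5r3 fell by 0.55 (SE 0.10, adjusted p = 0.00179). Both falls kept their call in all 22 alternatives tried. The call of hsd17b12b was lost without sibling replicate 2 (0.58, adjusted p = 0.0516). That of tecrb was lost without any one sibling pool or mutant replicate 1, 3 or 4 (0.36 to 0.45). That of cyb5b was lost without sibling replicate 1, 2 or 4 or mutant replicate 1, 3 or 4 (0.48 to 0.66). Processing mattered too. With the percentile over probes above background on all arrays both were lost (limma adjusted p = 0.0636 and 0.0689). Averaging all probes lost tecrb (0.31, adjusted p = 0.0691). Median scaling (0.0542) and no filter on dim probes (0.0562) lost cyb5b. The calls held in 12 and 10 of 22 alternatives.

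The other 8 partners did not pass. The dehydratases hacd1, hacd2, hacd3 and hacd4 differed by -0.17, 0.06, 0.21 and 0.33, and hacd4 passed without mutant replicate 4 (0.56, adjusted p = 0.0151). The enoyl reductase tecra differed by -1.12 ± 0.52 (adjusted p = 0.0980) and tecrl2b, whose genotypes did not overlap, by -1.58 ± 0.61 (adjusted p = 0.0517). The value of tecrl2b sat at the threshold, and it passed in 11 of 22 alternatives, among them normexp background correction (adjusted p = 0.0151), quantile (0.0473) and median (0.0423) scaling, a slide-row block (0.0465), and fits without mutant replicate 1 (0.0425) or 2 (0.0444). Both tecra and tecrl2b had far lower signal in mutant replicate 4, at -4.16 and -3.08, than in any other pool, and without it their differences were -0.56 and -0.90, the second then passing (adjusted p = 0.00417). In that pool the mean centred level of 7 skeletal muscle markers was -0.998, against -0.12 to 0.33 in the other 7 pools. Oocyte markers were also lowest there (-5.72), and 67.3% of probes were above background, against 72.7% to 76.3% on the other arrays. The part of these in the low tecra and tecrl2b signals was not tested. Without mutant replicate 1, tecra passed at -1.43 (adjusted p = 0.0475). The electron carriers cyb5a and cyb5r2 differed by -0.26 and -1.02. The size of the second rested on mutant replicate 2, which read -4.41 against -2.30 to -0.31 in the other mutant pools, and was -0.25 without it and -1.62 without mutant replicate 4. Without scaling cyb5a passed (-0.80, adjusted p = 0.0224).

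The list of 10 other elongases and desaturases also held faxdc2 and the sterol genes msmo1 and sc5d, which are not fatty acid elongases or desaturases. Of the 10 genes, 1 was higher and 2 were lower (30.0% called, against 57.6% of named genes), with a median of -0.09. The gene elovl4a, whose mammalian counterpart makes the longest chains of retina and skin, read -0.91, -0.88, -0.71 and -0.85 in the sibling pools and 0.48, 0.23, 0.35 and 0.42 in the mutant pools. The genotypes did not overlap, and the difference was 1.21 ± 0.09 (adjusted p = 6.55e-05). The dihydroceramide desaturase degs1 fell by 0.73 (SE 0.13, adjusted p = 0.00158) and faxdc2, of the fatty acid hydroxylase family, by 0.70 (SE 0.17, adjusted p = 0.00898). Without mutant replicate 2, 3 genes of this list were higher.

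Upstream of the family, the list of fatty acid synthesis and its drivers had 7 higher and 3 lower of 14. This was 71.4% called, against 57.6% of named genes, with a median of 0.32. The acetyl-CoA carboxylases, which make the malonyl-CoA that elongases consume, rose, acaca by 1.13 ± 0.25 and acacb by 0.91 ± 0.15. The liver X receptor nr1h3 rose by 0.61 ± 0.10. The regulator mid1ip1l fell by 1.88 (SE 0.26, adjusted p = 0.000519). The count of rises was 4 without sibling replicate 2 and 0 without scaling, where acaca (adjusted p = 0.0744), acacb (0.0993) and nr1h3 (0.702) did not pass. Acyl-CoA synthetases, which activate fatty acids before they can be lengthened, had 5 higher and 2 lower of 14, and 3 higher without scaling. Their share called was below the 57.6% of named genes. Differences in this list ran from -2.02 to 1.86, with a median of 0.19. Among these synthetases acsbg1 rose by 1.86 ± 0.27, acsl1b by 1.38 ± 0.13 and slc27a1b by 1.12 ± 0.12. A fall of 1.44 (SE 0.19) was seen for acsl4b.

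Downstream, ceramide synthases and the enzymes of sphingolipid entry had 4 higher and 6 lower of 13, with a median of -0.34. Of these genes 76.9% were called, against 57.6% of named genes. Without scaling 2 were higher. The ceramide synthases moved in both directions, with cers4b at 1.29 ± 0.13, cers2b at 0.98 ± 0.19 and cers4a at 0.74 ± 0.14, and cers5 at -1.11 ± 0.13. Another synthase, cers2a, was lower (-0.59). Of the sphingolipid entry genes, kdsr was higher (0.46). Lower were sptlc1 (-0.43), sptlc2a (-0.38), sptlc2b (-0.34) and sptlc3 (-0.50). Enzymes that transfer acyl chains into lipids had 4 higher and 4 lower of 13. Their share called, 61.5%, was near the 57.6% of named genes. Without scaling 0 were higher and 7 lower. The lysophospholipid acyltransferases lpcat4 and lpcat1 were lower (-1.61 ± 0.34 and -1.01 ± 0.12), and agpat3 (0.50 ± 0.09) and soat1 (0.71 ± 0.12) were higher, although soat1 read -0.14 when all its probes were averaged. The count of falls was 2 without sibling replicate 1, 2 or 3, and that of rises was 2 without sibling replicate 2.

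The peroxisomal enzymes that shorten very long chains had 2 higher and 2 lower of 15 (26.7% called, against 57.6% of named genes). Their median was 0.24. Without scaling 0 were higher and 5 lower. The bifunctional enzyme ehhadh fell by 1.35 (SE 0.28, adjusted p = 0.00359) and the acyl-CoA binding tether acbd5a rose by 0.40 ± 0.08 (adjusted p = 0.00398). The thioesterase acot8 (-1.08 ± 0.38, adjusted p = 0.0386) and the acyltransferase crot (0.51 ± 0.19, adjusted p = 0.0451) passed narrowly. The call of acot8 was lost without sibling replicate 4 or any 1 mutant pool (-1.16 to -1.01) and with normexp background correction (-0.40, adjusted p = 0.244), and that of crot without sibling replicate 1, 2 or 4 or mutant replicate 1, 3 or 4 (0.39 to 0.54). Sibling replicate 3 set much of the size of acot8, reading -1.39 against -3.33 to -2.89 in the other sibling pools, and without it the difference was -0.663. The call of crot was also lost with a slide-row block (adjusted p = 0.0573), median scaling (0.0608) and the percentile over probes above background on all arrays (0.0817). Without the filter on dim probes both crot (0.0599) and acot8 (0.0504) were lost. The call of crot held in 11 of 22 alternatives and that of acot8 in 15. Without mutant replicate 2 the list had 4 higher and 1 lower.

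**Figure D4:**
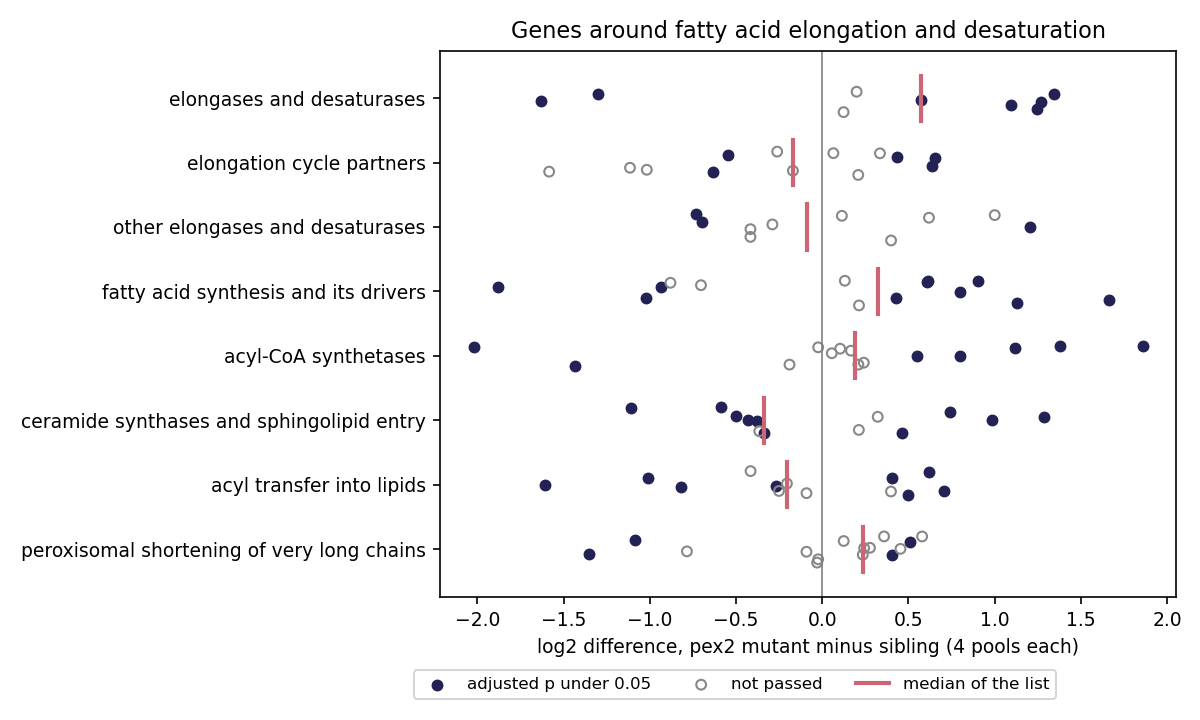
Each point is 1 gene, placed by its log2 difference (pex2 mutant minus sibling, 4 pools each) in its list; filled points passed an adjusted p of 0.05 and open points did not, and the red line is the list's median. Medians run from -0.34 for ceramide synthases and sphingolipid entry to 0.57 for the elongases and desaturases, and every list has genes on both sides of 0.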

How the data were processed

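Scanner files deposited by the authors hold 1 intensity per spot, the processed signal of Agilent Feature Extraction 10.7.3.1, per the file headers. A series matrix with log2 values was deposited too. Its values matched log2 intensity scaled to each array's 75th percentile and centred per probe, with 99.4% to 99.5% of values per array within 0.01, and column medians from -0.09 to 0.17. The match settled its scale, centring and direction, and it served as an alternative.

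After removal of 1099 outlier spots over 8 arrays, replicate spots were averaged and each array's 75th percentile was subtracted. Of 39749 probes, 29937 were kept, those well above background on 4 or more of 8 arrays. Through RefSeq accessions 61.8% of probes were named (GRCz12tu table). The grid names another build (danRer7), so no coordinates are given. A gene is its brightest kept probe. Genotypes were compared with lmFit and eBayes of limma 3.58.1 (R 4.3.3), two-sided, with Benjamini-Hochberg adjustment over all probes kept, after the fit was tested on simulated data. Copies were compared by exact permutation of the pools. Of 4 such pairs planned 3 could be tested. All 8 arrays lay on 1 slide.

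The members, lists and rule for named genes were chosen with earlier results of these data known. The rule names all members and elongation partners, in each other pathway list the 4 called genes (or fewer) with the lowest adjusted p, and each member's nearest profile. Pathway genes named outside it were elovl4b, msmo1, sc5d, srebf1, srebf2, fasn, mid1ip1a, kdsr, cers2a, sptlc1, sptlc2a, sptlc2b and sptlc3. Alternatives were normexp (offset 50), quantile, median and other percentile scaling, other filters, outlier spots kept, the deposited table, the mean of all probes, other fits, blocks, and each array left out. No scaling was added after seeing the data. The mutated gene was not checked, since no probe was named pex2. Sequences, promoters and proteins were not used here.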

Additional observations from a re-analysis of the deposited data

Results flagged for a closer look

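Each gene or pair of copies was examined in the 4 pools of each genotype, giving 24 sets. In 4 sets a pool's gap to the others was beyond Dixon's 95% critical value, where chance gives about 1 in 20. The sets of a pair share values with those of its genes, so the 4 cannot be weighed against that share. The scd signal of mutant replicate 1 was 3.24, against 0.26 to 0.73 in the other mutant pools. In the same pool scdb minus scd, which contains that scd value, was -1.60 when centred over the 8 arrays, against 1.07 to 1.51. The elovl5 signal of sibling replicate 1 was 1.29, below the other sibling pools at 1.65 to 1.67. The elovl1b signal of sibling replicate 3 was 1.43, above the others at 1.24 to 1.27.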

How the results depend on the processing

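The calls of scdb, elovl1a and elovl7a held in all 22 alternatives, with differences of 0.80 to 1.38, -2.18 to -1.18 and -1.84 to -1.19. Those of fads2, elovl5 and elovl6 were lost only without scaling, and that of elovl2 there and without 4 single pools. Leaving out scaling lowered all differences (median of all named genes -0.53), so it worked against rises and not against falls. Without scaling, 1 of the 9 genes was higher, and 11.5% of the genes passing were higher, against 51.8% with the 75th percentile, 44.4% with the percentile over probes above background on all arrays and 60.0% with normexp. Signs that turned without scaling were those of scd (-0.34), elovl1b (-0.42), hacd2 (-0.48), hacd3 (-0.33), hacd4 (-0.21), acbd5a (-0.14), tecrb (-0.11), agpat3 (-0.045) and crot (-0.032). Elsewhere scd turned without sibling replicate 2 (-0.12) and mutant replicate 1 (-0.50), and ranged up to 0.49 with other arrays left out. The value of soat1 turned with the mean of all probes (-0.14), and that of hacd1 with array weights (0.085) and without mutant replicate 4 (0.32; down to -0.34 with others left out). That of hacd2 turned with the percentile over bright probes (-0.026) and without mutant replicate 3 (-0.026) or 4 (-0.0081), with values up to 0.22 elsewhere. The causes were not tested.

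With each array left out, 8715 to 10308 named genes passed, 4 to 5 of the 9 were higher and 2 lower, and 35 to 50 genes of the pathway lists passed. The pairs ranged from 0.83 to 1.87 (scdb minus scd), 1.61 to 1.94 (elovl1b minus elovl1a) and -0.76 to -0.30 (elovl5 minus elovl2). Without mutant replicate 2 the last 2 passed, at 1.77 and -0.76. Other alternatives gave 8954 to 10635 genes and 40 to 54 list genes, the rises among them being fewer without scaling in every list except other elongases and desaturases.

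Same-numbered pools correlated at 0.18, 0.10, -0.02 and -0.03 in their deviations, and only replicate 2 matched its own number best. With so few pools per genotype, these values cannot show whether same-numbered pools shared more than a number. The labels do not say what the replicate numbers share. With the replicate block 9424 genes passed, 5 of the 9 higher and 2 lower, and the cytochrome gene cyb5b did not pass (adjusted p = 0.0541). A slide-row block lost cyb5b (0.0550), crot (0.0573) and fasn (0.0564) and gained tecrl2b (0.0465).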

Other observations

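Among the drivers of fatty acid synthesis, srebf1 and fasn were singled out after their values were seen. That list had 7 genes higher and 3 lower. Besides mid1ip1l, the lower ones were srebf2 (-0.94, limma adjusted p = 0.00716) and mid1ip1a (-1.02, adjusted p = 0.0101). The transcription factor gene srebf1, known in mammals to drive desaturase and elongase genes, read -3.94, -4.44, -3.59 and -4.67 in the sibling pools and -2.62, -0.999, -2.95 and -3.42 in the mutant pools. The difference was 1.66 ± 0.50 (limma adjusted p = 0.0204), and the call was lost without sibling replicate 2 (1.57, adjusted p = 0.0517) or sibling replicate 4 (1.49, adjusted p = 0.0551). It was lost without scaling too (1.12, adjusted p = 0.0796). The size rested most on mutant replicate 2, without which the srebf1 difference was 1.17 and still passed. Mutant replicate 2, the highest pool for srebf1 by over 1 log2 unit, was the lowest mutant pool for fads2, elovl2, elovl5 and elovl6. For scdb it was the highest, by 0.09 above the mutant mean. A link between srebf1 and these genes was not tested. The fatty acid synthase gene fasn read 1.32, 0.80, 1.24 and 0.94 in the sibling pools and 2.77, 1.56, 1.48 and 1.70 in the mutant pools. Mutant replicate 1, the highest pool for fasn, was also the highest for scd. The fasn difference was 0.80 ± 0.29 (adjusted p = 0.0404), a call lost without any 1 sibling pool or mutant replicate 4 (0.71 to 0.88, adjusted p between 0.0515 and 0.0989) and with a slide-row block (adjusted p = 0.0564), and held in 12 of 22 alternatives. Without mutant replicate 1 the fasn difference was 0.504, and without scaling it was 0.26 (limma adjusted p = 0.501).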
